A study of Mus musculus with 22 samples.

Results

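Experimental granulation tissue was compared between Mmp13-/- and wild type (WT) mice in the late phase of the sponge model, at 14 d and 21 d after implantation, and the measure examined was the change of the genotype difference between these days. All arrays of both days were taken, which gave 16 of the 22 arrays of the series, with 4 in each of the groups Mmp13-/- 14 d, WT 14 d, Mmp13-/- 21 d and WT 21 d. The mice carried a C57BL/6 x 129 mixed background and were 5 to 8 weeks old, the Mmp13-/- line had been backcrossed into C57BL6, and the WT mice descended from heterozygotes of that line. The deletion was in every cell of the animal, and no group carried another allele or agent. A viscose cellulose sponge (VCS) had been placed under the dorsal skin of every mouse, and RNA came from the ends of the sponge, so each array is a bulk measure of 1 animal in which fewer cells of a type and less RNA per cell cannot be told apart.

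Granulation tissue is the vascular, cell-rich tissue that fills a wound or an implanted sponge. Inflammatory cells, capillaries and fibroblasts enter it first, and inflammation then subsides while collagen and other matrix accumulate and are remodelled. Collagenase-3, the product of Mmp13, is a secreted proteinase that cleaves fibrillar collagens, and stromelysin-1 and gelatinase A (Mmp3 and Mmp2) are among the other matrix metalloproteinases of such tissue.

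Signals were log2 values, so a difference of 1 is a factor of 2 in signal. Array medians lay between 4.16 and 4.27, and correlations within a group over all probe sets were 0.977 to 0.996. The labels give 2 hybridization series with different RNA input and labelling kits. Replicates 1 to 3 of both genotypes at 14 d were in series 1, while replicate 4 of both genotypes at 14 d and every array of 21 d were in series 2. Day and series are therefore separated within a genotype by 1 array alone, and no level at 21 d is set against a level at 14 d here. The genotypes were equally divided between the series on each day, so an additive series effect drops out of the change of the genotype difference, while a genotype difference that depends on the series cannot be told apart from one that depends on the day. Mmp13 itself read 8.33, 7.91, 8.51 and 8.48 in Mmp13-/- arrays of 14 d, against 11.87, 11.58, 11.68 and 11.74 in WT arrays, and 7.72, 8.22, 8.07 and 7.62 in Mmp13-/- arrays of 21 d, against 11.39, 10.72, 10.55 and 12.02 in WT arrays. The genotypes did not overlap on either day, and the difference was -3.41 at 14 d and -3.26 at 21 d, with a change of 0.15 ± 0.36 (SE). The place of the Mmp13 probe set relative to the deletion was not examined.

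Across 45037 probe sets no change of the genotype difference passed limma's test at adjusted p under 0.05, and 2484 (5.52%) were under 0.05 before adjustment. The smallest adjusted p was 0.75. With each gene represented by its probe set of highest mean signal, 964 of 18193 genes (5.3%) had an unadjusted p under 0.05, of which 485 (2.67%) were positive and 479 (2.63%) negative. A positive change means that the Mmp13-/- value moved up relative to WT between 14 d and 21 d. With a size over 0.75 asked as well, 125 genes (0.687%) remained, 70 positive and 55 negative. All following changes of single genes are therefore descriptions of size beside an unadjusted p, and none is a call. For the genotype difference itself, 3.84% of probe sets and 4.58% of genes had an unadjusted p under 0.05 at 14 d, and 10.3% of probe sets and 10.5% of genes at 21 d. The 4 Mmp13-/- and 4 WT arrays did not overlap in 4.01% of genes at 14 d and in 3.36% at 21 d.

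Of those 125 genes, the genotype difference reversed its sign in 107, shrank without reversing in 7 and grew in 11. A large change between 2 small differences tends to come with opposite signs, so the share that reversed is no result about these genes. Both differences were over 0.4 in 25 of the genes that reversed, 13 positive and 12 negative. A stricter pattern, in which the 4 Mmp13-/- arrays lay wholly on one side of the 4 WT arrays at 14 d and wholly on the other side at 21 d, was met by 7 genes (0.0385%): B230217C12Rik, 1810062O18Rik, Pyurf, Saa3, Kif17, Spx and Pex3. Of the 4900 arrangements of the genotype labels within each day, a share of 0.000408 gives such an order. The share of genes that met it is close to that, so this count is no result about these genes. The spread of the changes had a median SE of 0.202 per gene, and the median change over all genes was -0.01.

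**Figure D1:**
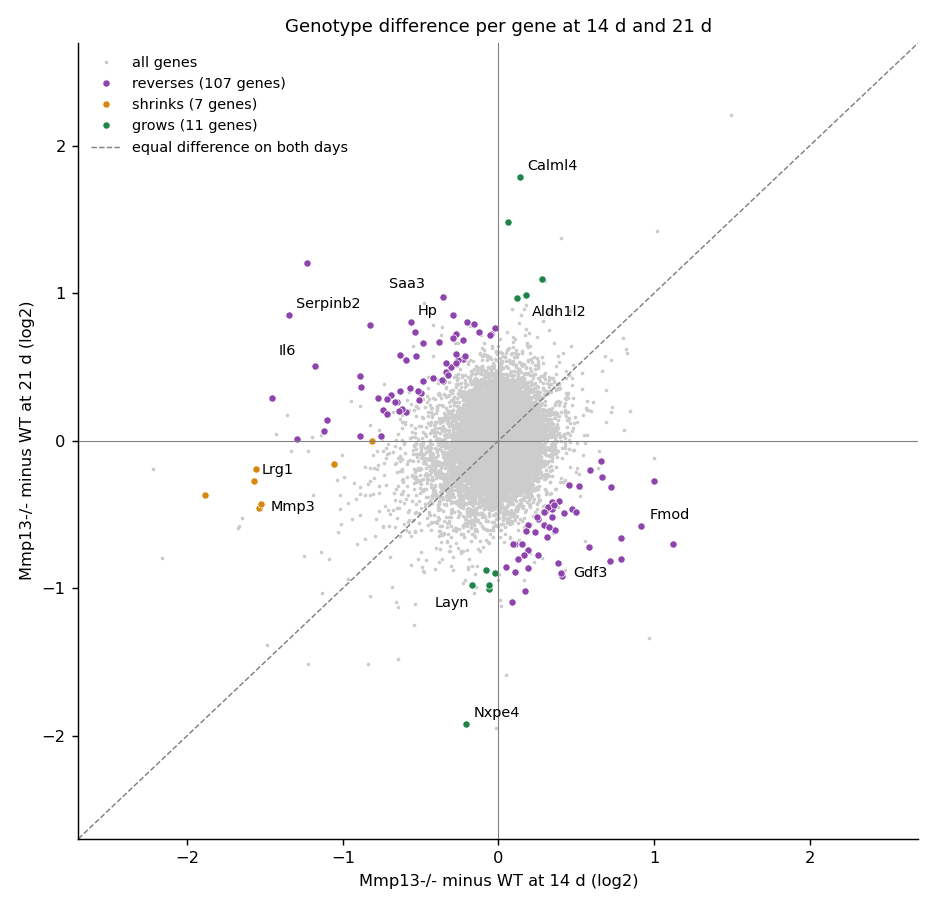
Each point is a gene, with Mmp13-/- minus WT at 14 d on the x axis and at 21 d on the y axis, both in log2 units. The 107 genes that reversed lie at the upper left and lower right, 7 that shrank lie near the x axis and 11 that grew lie near the y axis, while the dashed line marks an equal difference on both days and 3 genes with a difference over 2.7 lie outside the axes.

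Of 39 gene lists, the one with the highest share of members under an unadjusted p of 0.05 was that of the acute phase response and of nuclear factor kappa B (NF-kappaB) feedback. Acute phase proteins are secreted in inflammation, and the feedback genes are induced by NF-kappaB, which several of them restrain. Of the 20 measured members of this list, 18 had a positive change (47.7% of all genes had one) and 2 a negative change, and 9 (45%) were positive with an unadjusted p under 0.05, beside 2.67% of all genes. The median difference over the list was -0.14 at 14 d and 0.27 at 21 d, and the median change was 0.41, beside -0.01 over all genes. No member had an adjusted p under 0.05. The lists were chosen with earlier results of these data known, and this one was picked for its highest share. Its share is therefore a description and no test of the list. The 9 members were Hp, Saa3, Steap4, Tnfaip6, Nfkbiz, Saa2, Chil1, Socs3 and Lcn2.

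Hp encodes haptoglobin, which binds free haemoglobin in plasma. It read 10.72, 10.42, 9.62 and 10.43 in Mmp13-/- arrays of 14 d, against 11.17, 10.85, 11.00 and 10.42 in WT arrays. At 21 d it read 9.84, 9.73, 10.34 and 10.22 in Mmp13-/- arrays, against 9.01, 9.39, 9.09 and 9.42 in WT arrays. Mmp13-/- tissue thus had the lower mean at 14 d with overlapping arrays, and at 21 d its lowest array was above the highest WT array. The difference was -0.56 at 14 d and 0.81 at 21 d, a change of 1.37 ± 0.31 (SE; limma adjusted p = 0.851).

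Saa3, a serum amyloid A made by macrophages and fibroblasts outside the liver in mice, read 11.48, 11.42, 10.70 and 11.53 in Mmp13-/- arrays of 14 d, against 11.72, 11.65, 11.61 and 11.58 in WT arrays. The values at 21 d were 10.72, 10.92, 10.86 and 11.49 in Mmp13-/- arrays, against 10.07, 9.19, 10.19 and 10.64 in WT arrays. The genotypes were fully apart on both days and in opposite order. The change was 1.33 ± 0.36 (SE; limma adjusted p = 0.851).

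The other 7 members differed in which day carried the change. Steap4, a metalloreductase, read 7.85, 7.82, 8.08 and 7.91 in Mmp13-/- arrays of 14 d, against 8.60, 8.77, 8.64 and 8.32 in WT arrays. These did not overlap, while at 21 d its difference was -0.03. A second, dimmer probe set of Steap4 had -0.96 at 14 d and 0.46 at 21 d, a change of 1.42 against 0.64 in the first. Tnfaip6, a secreted hyaluronan-binding protein, had differences of -0.72 at 14 d and 0.28 at 21 d. Chil1, a chitinase-like secreted protein, had -1.12 and 0.06, and Lcn2, a lipocalin that binds bacterial siderophores, had -0.99 and -0.25, so in both the larger difference was that of 14 d. Nfkbiz, which encodes an atypical member of the family of NF-kappaB inhibitors, had -0.15 and 0.45. Socs3, a feedback inhibitor of cytokine signalling, had -0.34 and 0.53. In Nfkbiz and Socs3 the larger difference was that of 21 d. Saa2 was dim, with a mean of 2.77.

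Promoter windows from 250 bases before to 50 after the start of the gene (RefSeq, GRCm38.p6) were found for 7 of these 9 genes, all except Hp and Nfkbiz. The letters TTGCNNAA, one form of the site of the C/EBP factors, searched on both strands, occurred in 4 of the 7 windows (57.1%), namely those of Saa3, Steap4, Saa2 and Lcn2, and in 10.8% of 32851 windows of all genes. Over the 17 measured members of the list with a window, changed or not, 7 (41.2%) held it. The letters GGGNNTTCC, one form of the NF-kappaB site, were found in the window of Steap4 alone among the 7 (14.3%), in 5 of the 17 (29.4%) and in 5.82% of all windows. The windows of Tnfaip6, Chil1 and Socs3 held neither motif and, like that of Saa2, are not shown. Saa3 reversed, Steap4 had a difference at 14 d with probe sets that disagree on 21 d, and Lcn2 had a smaller difference at 21 d. Among them, Saa3 alone had the larger difference at 21 d, with -0.36 at 14 d and 0.975 at 21 d. The windows of Saa3, Steap4 and Lcn2, which hold a match, are shown. Each is written from 5′ to 3′ on the strand of its gene and is made of promoter and first transcribed bases, at chr7:46715627-46715926 (minus strand) for Saa3, chr5:7960222-7960521 (plus strand) for Steap4 and chr2:32387690-32387989 (minus strand) for Lcn2. Capitals mark the matches, which are the C/EBP letters in each window (read on the opposite strand in Saa3) and, nearer the 5′ end in Steap4, the NF-kappaB letters, also read on the opposite strand. No binding was measured in these samples.
Saa3: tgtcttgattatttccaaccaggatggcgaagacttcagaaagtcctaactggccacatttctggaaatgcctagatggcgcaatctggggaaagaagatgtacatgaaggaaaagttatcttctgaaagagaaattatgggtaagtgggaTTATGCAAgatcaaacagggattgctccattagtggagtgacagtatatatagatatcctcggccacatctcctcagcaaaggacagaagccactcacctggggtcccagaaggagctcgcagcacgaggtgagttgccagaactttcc
Steap4: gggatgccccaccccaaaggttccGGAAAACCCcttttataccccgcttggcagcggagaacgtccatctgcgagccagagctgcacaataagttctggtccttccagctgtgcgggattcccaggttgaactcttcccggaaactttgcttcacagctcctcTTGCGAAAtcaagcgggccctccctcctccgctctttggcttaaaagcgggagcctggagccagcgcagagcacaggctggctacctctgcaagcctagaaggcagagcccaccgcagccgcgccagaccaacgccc
Lcn2: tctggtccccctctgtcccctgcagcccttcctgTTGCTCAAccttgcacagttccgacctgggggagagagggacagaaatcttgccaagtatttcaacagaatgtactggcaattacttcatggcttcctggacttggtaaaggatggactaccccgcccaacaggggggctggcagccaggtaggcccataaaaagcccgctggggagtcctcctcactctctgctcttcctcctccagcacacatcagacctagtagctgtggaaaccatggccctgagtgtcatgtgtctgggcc

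Chemokines, which attract leukocytes, had the same direction. Of 27 measured, 23 had a positive change, and 5 (18.5%) were positive with an unadjusted p under 0.05 and none negative. Their median difference was -0.28 at 14 d, when 25 were lower in Mmp13-/- tissue, and 0.12 at 21 d, when 18 were higher. The 5 were Cxcl5, Cxcl1, Ppbp, Cxcl2 and Ccl7, of which all except Ccl7 belong to the CXC chemokines that act on neutrophils. Cxcl5 read 8.99, 8.63, 8.57 and 8.15 in Mmp13-/- arrays of 14 d, against 9.26, 9.28, 9.09 and 9.08 in WT arrays, and 8.29, 8.4, 8.12 and 7.73 in Mmp13-/- arrays of 21 d, against 7.86, 7.07, 6.92 and 8.5 in WT arrays. The arrays were apart at 14 d, with Mmp13-/- lower, and overlapped at 21 d. Its change was 1.14 ± 0.38 (SE; limma adjusted p = 0.860), and that of Cxcl1 was 0.69 ± 0.23, with the same sign in 3 of 3 probe sets. Ppbp, the platelet basic protein, had a change of 1.24 ± 0.47, nearly all of it a difference of -1.10 at 14 d. Ccl2, the main monocyte attractant, had -0.12 at 14 d and 0.59 at 21 d, with an unadjusted p of 0.0608. Ccl5, a T cell attractant, had -0.37 and -0.63, and Ccl11, an eosinophil attractant, had -1.03 and -0.62.

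Inflammatory cytokines and their receptors gave 19 positive changes among 25 measured, 6 (24%) with an unadjusted p under 0.05 and none negative at that level. These were Il6, Il13ra1, Nlrp3, Il1b, Il17ra and Ptgs2. Il6 was dim and variable. It read 4.66, 4.03, 3.79 and 3.27 in Mmp13-/- arrays of 14 d, against 4.53, 5.61, 4.80 and 5.53 in WT arrays, and 4.02, 3.73, 3.07 and 4.82 in Mmp13-/- arrays of 21 d, against 2.75, 3.40, 3.46 and 4.00 in WT arrays. Arrays overlapped on both days, and the difference was -1.18 at 14 d and 0.51 at 21 d, a change of 1.69 ± 0.53 (SE; limma adjusted p = 0.860). For Il1b the difference was -0.48 at 14 d and 0.66 at 21 d, and for Ptgs2, the inducible cyclooxygenase, 0.06 and 1.49, so that only the second of these grew without a difference at 14 d. Il13ra1, a receptor chain for interleukin-13 and interleukin-4, had -0.24 and 0.39, with the same sign in 5 of 5 probe sets. The members with a change within 0.05 of 0 included Il1a, Il33, Csf1, Lif, Il6st and Il6ra.

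Ereg, which encodes epiregulin, a ligand of the epidermal growth factor receptor, read 5.25, 4.67, 4.58 and 4.74 in Mmp13-/- arrays of 14 d, against 4.80, 5.35, 4.99 and 5.27 in WT arrays. At 21 d the values were 4.81, 4.57, 4.61 and 5.29 in Mmp13-/- arrays, against 3.92, 4.59, 3.42 and 3.93 in WT arrays. Only WT replicate 2 of 21 d reached the Mmp13-/- range, and the change was 1.15 ± 0.32 (SE; limma adjusted p = 0.860). Paip1, a partner of the poly(A)-binding protein, had differences of -0.64 at 14 d and 0.58 at 21 d, with a change of 1.22 ± 0.32 and the same sign in 3 of 4 probe sets, and it was 0.79 within series 2.

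**Figure D2:**
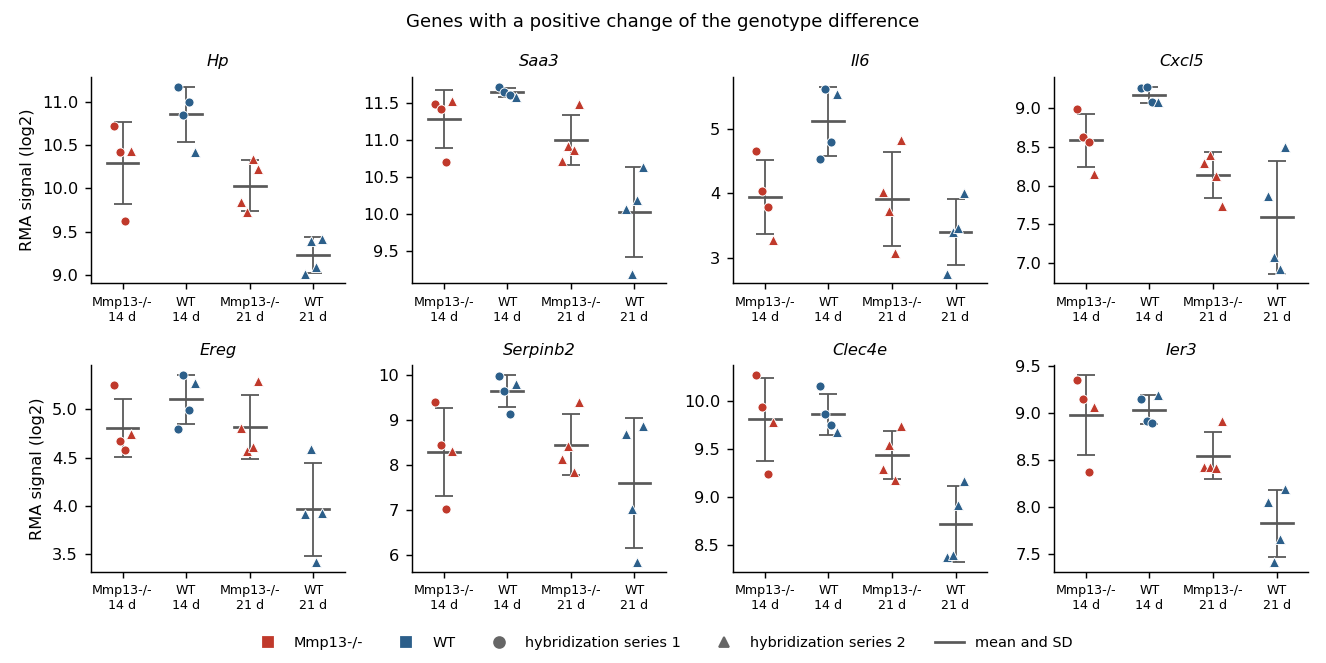
RMA signal (log2, y axis) of 8 genes with a positive change, by group on the x axis, with a point for each array (circles for hybridization series 1, triangles for series 2) and bars for mean and SD of 4 arrays. Mmp13-/- arrays of Hp and Saa3 lie mostly below WT at 14 d and wholly above WT at 21 d, and in Clec4e and Ier3 the genotypes overlap at 14 d and are apart at 21 d.

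Immediate early genes, transcription factors and phosphatases induced within minutes of a stimulus, had 20 positive changes among 25, with 5 positive and 2 negative under an unadjusted p of 0.05 (28%). Here the difference was that of 21 d. The list median was -0.06 at 14 d and 0.21 at 21 d, and 23 of 25 were higher in Mmp13-/- tissue at 21 d. Ier3 read 9.35, 9.15, 8.37 and 9.06 in Mmp13-/- arrays of 14 d, against 9.15, 8.92, 8.89 and 9.19 in WT arrays, and 8.42, 8.43, 8.41 and 8.92 in Mmp13-/- arrays of 21 d, against 8.05, 7.41, 7.66 and 8.19 in WT arrays. The genotypes overlapped at 14 d and were apart at 21 d, as they were for Fos, with differences of -0.06 and 0.50. Rgs2, a regulator of G protein signalling, and Atf3, a stress-induced factor, went the other way, Rgs2 with 0.81 at 14 d and 0.07 at 21 d (a change of -0.29 within series 2, against -0.74) and Atf3 with 0.30 and -0.07.

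Neutrophil genes had a median difference of -0.27 at 14 d and 0.11 at 21 d, and 2 of 14 measured (14.3%) were positive under an unadjusted p of 0.05, Clec4e and Il1b. Clec4e, a lectin receptor that myeloid cells induce, was apart at 21 d, where it read 9.29, 9.54, 9.18 and 9.74 in Mmp13-/- arrays, against 8.37, 8.4, 8.92 and 9.17 in WT arrays. S100a8 and S100a9, the calgranulins that fill neutrophil cytoplasm, had differences of -0.57 and -0.53 at 14 d and of 0.21 and 0.23 at 21 d, with unadjusted p-values of 0.118 and 0.195. The granule genes Mpo, Elane, Camp, Ltf and Ngp were dim, with means of 3.02, 3.80, 4.49, 4.42 and 3.87. What part leukocyte number has in the changes of the cytokine, chemokine and acute phase lists was not tested.

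The fourth pair of 14 d arrays bears on these lists, since it is the only comparison of 14 d within hybridization series 2. In series 1, the median difference at 14 d was -0.23 for the acute phase list and -0.27 for chemokines, and in the pair of replicates 4 it was 0.005 and -0.05. Within series 2 alone, with that pair as the only arrays of 14 d, the median change was 0.22 for the acute phase list, with 1 member under an unadjusted p of 0.05, and 0.12 for chemokines. The cytokine list had -0.13 in series 1 and -0.17 in the pair, and a change of 0.28 within series 2. For the neutrophil list these values were -0.32, -0.04 and 0.295. Hp had a difference of -0.75 in series 1 and 0.01 in the pair, Saa3 -0.46 and -0.05, Cxcl5 -0.48 and -0.93, and Il6 -0.82 and -2.26. Of the 92 named genes, 82 had the same direction of change within series 2. Among these 82, 33 had a change smaller by over 1.5 times and 13 a change larger by over 1.5 times. The fit within series 2 shares every array of the later day and its pair of 14 d with the main fit. Many of the 92 genes were also named for their change over the same arrays. A shared direction is therefore partly built in and is no independent check. Hp had 0.80 within series 2, against 1.37 over all arrays. Whether the labelling or the animals made the pair different was not tested. When each array was left out in turn, the acute phase list kept between 5 and 11 members positive or negative under an unadjusted p of 0.05, and its median change stayed between 0.35 and 0.52.

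Among matrix metalloproteinases other than Mmp13, Mmp3 and Mmp2 had a difference that was called at 14 d and was smaller at 21 d. Mmp3 read 9.52, 8.59, 9.37 and 8.95 in Mmp13-/- arrays of 14 d, against 10.64, 10.65, 10.71 and 10.53 in WT arrays. It fell by 1.52 in Mmp13-/- tissue at 14 d (limma adjusted p = 0.0453), and the arrays did not overlap. At 21 d it read 10.24, 10.24, 9.67 and 9.46 in Mmp13-/- arrays, against 10.68, 10.55, 9.68 and 10.42 in WT arrays, a difference of -0.43 with overlapping arrays (limma adjusted p = 0.556). The change was 1.09 ± 0.33 (SE; limma adjusted p = 0.860), and it was 1.15 within series 2. Mmp3 lies on the chromosome of Mmp13, and what part linked strain alleles have in its difference was not tested.

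Mmp2 read 9.79, 9.84, 9.87 and 9.25 in Mmp13-/- arrays of 14 d, against 10.65, 10.65, 10.86 and 10.25 in WT arrays, and 10.36, 9.82, 10 and 9.58 in Mmp13-/- arrays of 21 d, against 10.40, 10.40, 10.29 and 10.26 in WT arrays. It too fell at 14 d, by 0.92 (limma adjusted p = 0.034), and had -0.40 at 21 d (adjusted p = 0.319), when Mmp13-/- replicate 1 lay within the WT range. Its change was 0.52 ± 0.19 (SE; limma adjusted p = 0.875), positive in 2 of 2 probe sets. The calls of Mmp3 and Mmp2 at 14 d held in 4 of 16 fits that each left out 1 array, with adjusted p-values of up to 0.241 for Mmp3 and 0.21 for Mmp2 in limma. They were lost without any one of the 8 arrays of 14 d, without WT replicate 1, 2 or 4 of 21 d, and without Mmp13-/- replicate 3 of 21 d. That both passed the test at 14 d and not at 21 d does not show that the days differ. Of 15 measured members of the family, 11 had a positive change and these 2 (13.3%) an unadjusted p under 0.05. Mmp9, a gelatinase of leukocytes, had -1.01 at 14 d and -0.47 at 21 d, a change of 0.55 ± 0.61 (SE). Its other probe set had -0.78 and -0.60, a change of 0.18. Mmp12, the macrophage elastase, had 0.10 and 0.13 and Mmp14, a membrane-bound proteinase, -0.12 and -0.18.

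The other probe sets called at 14 d, of 9 (0.02%) in all, showed both patterns. Stxbp6, a syntaxin-binding protein, was dim and shrank, with -1.05 at 14 d and -0.16 at 21 d, a change of 0.90 ± 0.21 (SE; limma adjusted p = 0.851) that 1 of its 2 probe sets had. Lum, which encodes lumican, a small proteoglycan that binds collagen fibrils, had -0.94 and -0.53. A probe set shared by Hba-a1 and Hba-a2, which encode alpha globin, had -1.21 and -0.54, and 1 dim probe set without a gene name was the only one of the 9 that was higher in Mmp13-/- tissue. Casp4, an inflammatory caspase, had -1.49 and -1.39, with no overlap on either day. When single arrays were left out, the call at 14 d held in 7 of 16 fits for Stxbp6, 6 for Casp4 and 4 each for Lum, Hba and the unnamed probe set, while that of Mmp13 held in 16 of 16 on both days. At 21 d only Mmp13 and Slc40a1 were called (2 probe sets, 0.00444%). Slc40a1 encodes the iron exporter ferroportin, which had -0.98 at 14 d and -1.57 at 21 d (limma adjusted p = 0.0182), a change of -0.59 ± 0.28 (SE). This call held in 14 of 16 such fits and was lost without WT replicate 1 or Mmp13-/- replicate 3 of 21 d. Its other, brighter probe set had -0.84 and -1.51 and was not called at 21 d (limma adjusted p = 0.131).

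Other genes that shrank were Lrg1, Selp, Prg4, Serpina3n and Dmkn, all lower in Mmp13-/- tissue at 14 d. Lrg1, a secreted leucine-rich glycoprotein, read 5.88, 4.79, 5.47 and 4.72 in Mmp13-/- arrays of 14 d, against 6.93, 7.01, 7.12 and 6.08 in WT arrays, without overlap, and 5.94, 5.90, 5.51 and 6.22 in Mmp13-/- arrays of 21 d, against 5.96, 6.59, 4.99 and 7.12 in WT arrays, where the Mmp13-/- arrays lay inside the WT range. The change was 1.30 ± 0.48 (SE). Selp, the P-selectin of platelets and endothelium, had -0.81 at 14 d and -0.01 at 21 d. Prg4, the joint lubricant lubricin, had -1.56 and -0.20, but its change was 0.15 within series 2, against 1.36 over all arrays. Dmkn, a member of the keratinocyte list, had -1.54 at 14 d and -0.455 at 21 d. Its change was 0.215 within series 2, against 1.08 over all arrays.

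Proteinase inhibitors had 4 positive and 1 negative change under an unadjusted p of 0.05 among 21 measured (23.8%). Serpinb2, plasminogen activator inhibitor 2, had the largest of them, with -1.34 at 14 d and 0.85 at 21 d, a change of 2.19 ± 0.84 (SE), although the genotypes overlapped on both days. Serpina3n, an acute phase inhibitor of serine proteinases, had -1.89 and -0.37, and Timp1, an inhibitor of metalloproteinases, had -0.50 and -0.05. Slpi, an inhibitor of leukocyte elastase, had -0.18 and 0.42. Timp3, the inhibitor that is bound to matrix, ran the opposite way with 0.33 and -0.36, with the same sign in 4 of 4 probe sets and a change of -0.41 within series 2, against -0.69 over all arrays.

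Matrix genes were mostly lower in Mmp13-/- tissue on both days. Of 32 glycoproteins and proteoglycans, 29 had a negative difference at 14 d and 27 at 21 d, with medians of -0.34 and -0.20, and 2 were positive and 2 negative in their change under an unadjusted p of 0.05 (12.5%). Fmod, which encodes fibromodulin, a proteoglycan that binds collagen fibrils, read 8.96, 9.68, 9.74 and 10.02 in Mmp13-/- arrays of 14 d, against 8.21, 8.31, 9.43 and 8.79 in WT arrays. At 21 d its values were 10.21, 9.84, 10.45 and 9.29 in Mmp13-/- arrays, against 10.64, 10.83, 10.27 and 10.37 in WT arrays. Mmp13-/- tissue had the higher mean at 14 d and the lower mean at 21 d, with overlap on both days. The change was -1.5 ± 0.40 (SE; limma adjusted p = 0.851), it was negative in 6 of 6 probe sets, and it was -1.81 within series 2.

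Fbn2, the microfibril protein fibrillin-2, had 0.29 at 14 d and -0.57 at 21 d. Its values at 21 d were 8.46, 8.4, 8.72 and 8.33 in Mmp13-/- arrays, against 9.22, 9.12, 9.18 and 8.67 in WT arrays, which touched only through WT replicate 4. At 14 d it had 0.51 in series 1 and -0.35 in the pair of replicates 4, and its change was -0.22 within series 2, against -0.86 over all arrays. Vcan and Tnc had positive changes, the large proteoglycan versican with -0.49 and -0.10 and the adhesion-modulating tenascin-C with -0.45 and -0.05. Among 19 collagens only Col8a1, a short-chain collagen of vessel walls, had an unadjusted p under 0.05 (5.26%), with 0.32 at 14 d and -0.45 at 21 d, and a change of -0.47 within series 2, against -0.77. Fibrillar collagens had changes of -0.14 ± 0.15 for Col1a1, -0.04 ± 0.12 for Col1a2 and 0.13 ± 0.11 for Col3a1 (SE).

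Signalling genes that reversed downwards came from several families. Gdf3, a ligand of the transforming growth factor beta (TGF-beta) superfamily, read 6.53, 6.27, 6.56 and 5.79 in Mmp13-/- arrays of 14 d, against 5.41, 5.69, 5.25 and 5.66 in WT arrays, and 5.23, 6.19, 6.59 and 5.73 in Mmp13-/- arrays of 21 d, against 7.09, 6.97, 6.44 and 6.46 in WT arrays. Mmp13-/- arrays were all higher at 14 d, and at 21 d only Mmp13-/- replicate 3 was within the WT range. The change of -1.59 ± 0.36 (SE; limma adjusted p = 0.851) was -0.94 within series 2. Ltbp2, a matrix protein of the family that holds latent TGF-beta, had 0.46 at 14 d, without overlap, and -0.18 at 21 d. Tgfb1 had 0.29 and -0.15, but its signal was lower in every series 2 array, at 7.18 in Mmp13-/- replicate 4 and 6.64 in WT replicate 4 of 14 d, against 8.64 or more in the series 1 arrays of that day. Smad6, an intracellular inhibitor of the pathway, was dim and had 0.17 and -0.61. Over the 28 TGF-beta and bone morphogenetic protein genes, 2 were positive and 3 negative under an unadjusted p of 0.05 (17.9%), and the median change was 0.03.

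Fzd8, a Wnt receptor, read 5.24, 5.42, 5.24 and 5.24 in Mmp13-/- arrays of 14 d, against 5.02, 5.16, 5.37 and 4.99 in WT arrays, and 5.49, 5.10, 5.32 and 4.77 in Mmp13-/- arrays of 21 d, against 5.72, 5.98, 6.08 and 5.70 in WT arrays. The genotypes overlapped at 14 d and were apart at 21 d, a change of -0.85 ± 0.20 (SE; limma adjusted p = 0.851). The Wnt ligand Wnt2 and the antagonists Dkk1, Sfrp2 and Sfrp5 had positive changes of 0.90, 0.41, 0.36 and 0.48, so 5 of 26 members (19.2%) were under an unadjusted p of 0.05 in mixed directions. That of Wnt2 was 0.26 within series 2, and Dkk1 was dim, with a mean of 3.02. Igf1, the insulin-like growth factor of macrophages and fibroblasts, had 0.34 at 14 d and -0.20 at 21 d, and its change of -0.54 ± 0.17 was negative in 4 of 4 probe sets and was -0.19 within series 2. B230217C12Rik is a transcript of unassigned function. It read 5.92, 5.78, 6.06 and 5.71 in Mmp13-/- arrays of 14 d, against 5.69, 5.40, 5.28 and 5.64 in WT arrays. Its values at 21 d were 5.19, 5.15, 4.88 and 5.03 in Mmp13-/- arrays, against 5.46, 5.51, 5.75 and 5.94 in WT arrays. The order was complete on both days and reversed, with a change of -0.97 ± 0.19 (SE; limma adjusted p = 0.835).

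**Figure D3:**
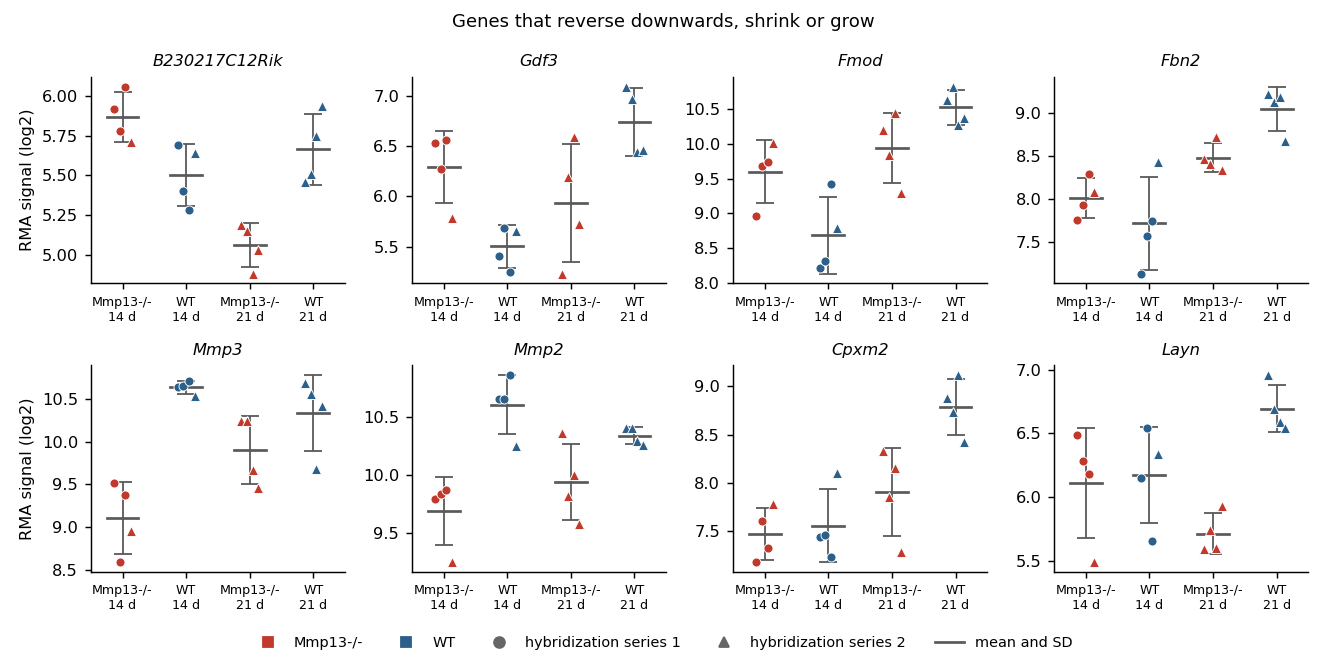
RMA signal (log2, y axis) of 8 genes that reversed downwards, shrank or grew, by group on the x axis, with a point for each array (circles for hybridization series 1, triangles for series 2) and bars for mean and SD of 4 arrays. Mmp13-/- arrays of B230217C12Rik are all above WT at 14 d and all below at 21 d, Mmp3 and Mmp2 are apart at 14 d and overlap at 21 d, and Cpxm2 and Layn overlap at 14 d and are apart at 21 d.

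Genes whose difference grew had little or no difference at 14 d. Layn, which encodes layilin, a receptor for hyaluronan, read 5.59, 5.74, 5.60 and 5.93 in Mmp13-/- arrays of 21 d, against 6.96, 6.69, 6.59 and 6.54 in WT arrays. No array overlapped at 21 d, where the difference was -0.98, against -0.06 at 14 d. Its pair of replicates 4 at 14 d differed by -0.85, and within series 2 the change was -0.13, against -0.92 ± 0.28 (SE) over all arrays. A second probe set of Layn, with a mean of 5.99 against 6.17, reversed instead. It had 0.21 at 14 d and -0.325 at 21 d. Cpxm2, a carboxypeptidase-like secreted protein, read 8.33, 7.85, 8.16 and 7.29 in Mmp13-/- arrays of 21 d, against 8.88, 8.73, 9.12 and 8.42 in WT arrays, again without overlap. It had -0.08 at 14 d and -0.88 at 21 d, and -0.56 as its change within series 2. A second, dimmer probe set of Cpxm2 had -0.28 and -0.625, a change of -0.34. Mest and Igf2, imprinted genes that are expressed from the paternal copy, had -0.17 and -0.02 at 14 d and -0.98 and -0.90 at 21 d. Their pair of replicates 4 at 14 d differed by -0.75 and -0.43, and within series 2 the change was -0.23 for Mest, against -0.81 over all arrays, and -0.47 for Igf2, against -0.88. Irs1, an adaptor of the insulin receptor, had -0.06 and -1.0. Nxpe4 had -0.21 and -1.92, with a change of -0.48 within series 2. Layn and Nxpe4 lie on chromosome 9, as Mmp13 does, while Cpxm2 and Igf2 lie on chromosome 7 and Mest on chromosome 6. Genes named in other paragraphs that lie on chromosome 9 include Mmp3, Casp4, Pdgfd, Cadm1 and Smad6. What part strain alleles linked to the deletion have in these differences was not tested.

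In the positive direction, Aldh1l2, a mitochondrial enzyme of folate metabolism, read 6.46, 6.90, 6.96 and 7.27 in Mmp13-/- arrays of 21 d, against 6.54, 5.45, 5.70 and 6.02 in WT arrays. Mmp13-/- replicate 1 alone lay within the WT range, and the difference was 0.97 at 21 d, against 0.12 at 14 d. Serpini1, the inhibitor neuroserpin, had 0.18 and 0.99, Dixdc1, a protein of the Wnt pathway, 0.28 and 1.1, and Calml4, a calmodulin-like protein, 0.14 and 1.79, each without overlap at 21 d. The pair of replicates 4 at 14 d differed by 0.83 in Dixdc1, 2.08 in Calml4 and -0.69 in Serpini1. Within series 2 the change was 0.27 for Dixdc1, against 0.81 over all arrays, it was -0.29 and so reversed for Calml4, against 1.65, and it was 1.68 for Serpini1, against 0.81. For Aldh1l2 it was 1.01, against 0.85. Dixdc1 and Calml4 lie on chromosome 9, as Mmp13 does, Aldh1l2 on chromosome 10 and Serpini1 on chromosome 3. Genes of glycolysis and the hypoxia response had a positive difference in 23 of 25 at 14 d and 24 of 25 at 21 d, with medians of 0.11 and 0.34. In the pair of replicates 4 at 14 d, 12 were positive and 12 negative with a median of 0, against 0.15 in series 1, and within series 2 the median change was 0.37. The change was positive in 20 of them, but 1 was positive and 1 negative under an unadjusted p of 0.05 (8%). Bnip3, a mitochondrial protein induced in hypoxia, had 0.05 and 0.59, Egln3, an oxygen sensor, 0.17 and 0.89, and Vegfa, the vascular growth factor, 0.15 and 0.61. The change had an unadjusted p of 0.0549 for Egln3 and 0.111 for Vegfa.

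**Figure D4:**
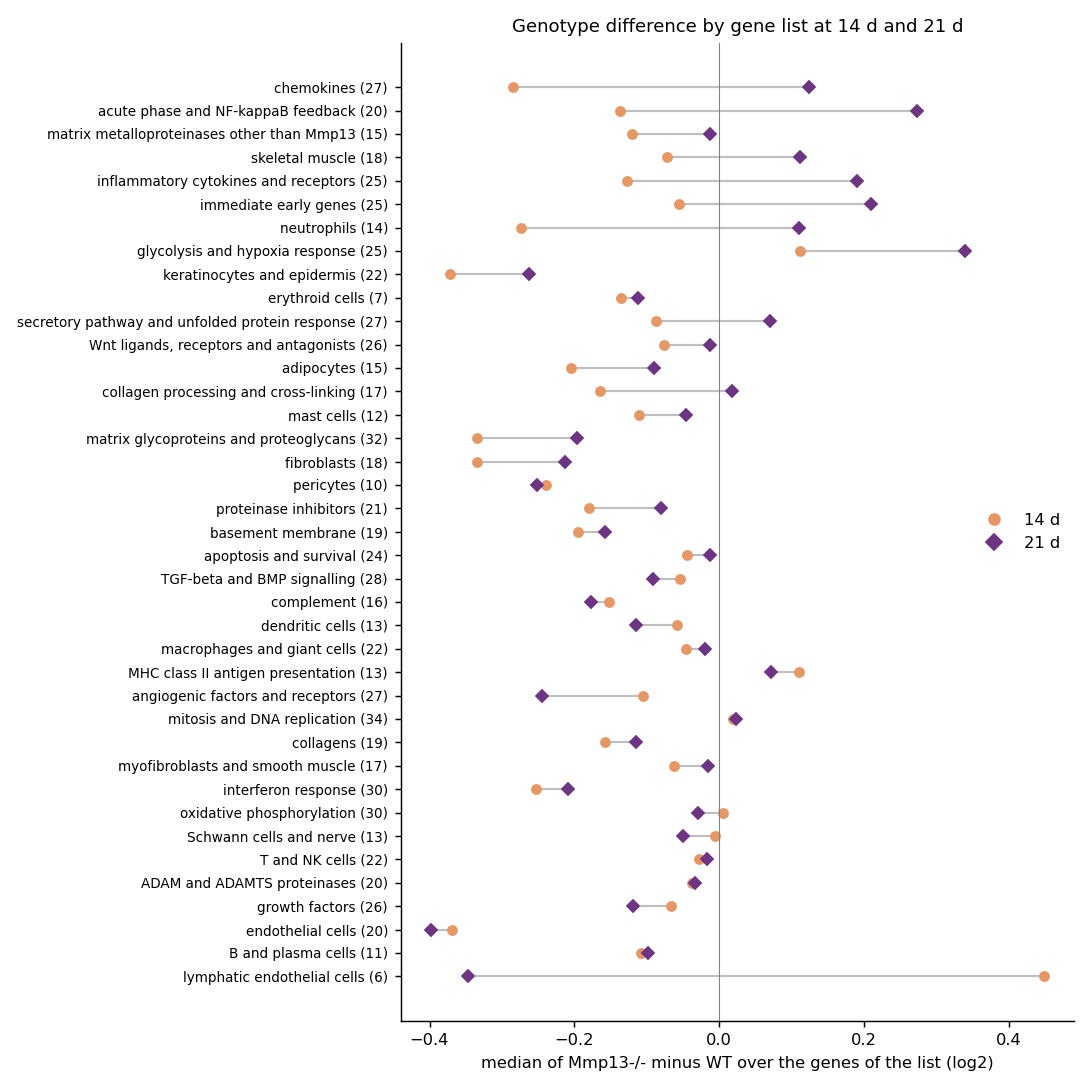
Median of Mmp13-/- minus WT (log2, x axis) over the measured genes of 39 lists (y axis, number of genes in parentheses), at 14 d (circles) and 21 d (diamonds), ordered by the median change. Chemokines moved across 0 between a median of -0.28 at 14 d and 0.12 at 21 d, endothelial genes stayed near -0.37 and -0.40, and lymphatic genes had 0.45 and -0.35.

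Endothelial genes had a similar difference on both days. All 20 were lower in Mmp13-/- tissue at 14 d and 19 of 20 at 21 d, with medians of -0.37 and -0.40, and no member had an unadjusted p under 0.05 for the change. The median change was -0.12, and between -0.28 and 0.01 when single arrays were left out. Ramp2, a receptor partner for adrenomedullin, had -0.40 and -0.56, and Eng, a TGF-beta coreceptor, -0.17 and -0.42, both apart on both days. Lymphatic genes, by contrast, had a median of 0.45 at 14 d, with 6 of 6 higher in Mmp13-/- tissue, and -0.35 at 21 d, with 5 of 6 lower. Only Reln had an unadjusted p under 0.05 (16.7%), with 0.79 and -0.66, and a change of -0.52 within series 2, against -1.44. In the pair of replicates 4 the lymphatic median at 14 d was -0.17, against 0.67 in series 1, and within series 2 its change was -0.15. The list mean ran at 5.38 to 6.99 in Mmp13-/- arrays and 5.09 to 6.45 in WT arrays of 14 d, and at 6.59 to 7.47 in Mmp13-/- arrays and 6.69 to 7.80 in WT arrays of 21 d, so the genotypes overlapped on each day.

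Fibroblast genes had medians of -0.33 at 14 d and -0.21 at 21 d, and macrophage and giant cell genes -0.04 and -0.02, with 1 of 22 under an unadjusted p of 0.05. Interferon response genes had -0.25 and -0.21 and a median change of -0.03, but at 14 d they were opposite between the series, at -0.44 in series 1 and 0.38 in the pair of replicates 4. Keratinocyte genes mark skin epithelium, which a sponge below the skin should lack. Their list mean was 4.49 and 4.71 in WT replicates 1 and 3 of 14 d. It was 3.37 to 3.52 in the Mmp13-/- arrays and 3.51 and 3.55 in the other WT arrays of that day. At 21 d it was 3.54 to 4.08 in WT arrays, against 3.44 to 3.57 in Mmp13-/- arrays. The list median was -0.37 at 14 d and -0.26 at 21 d, with 2 of 22 (9.09%) positive in their change under an unadjusted p of 0.05, Krtdap and Dmkn. With WT replicates 1 and 3 of 14 d left out, an alternative chosen after seeing the data, the keratinocyte median change was -0.17. That of the acute phase list was then 0.51 with 8 members under an unadjusted p of 0.05, and that of chemokines was 0.33 with 5.

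**Figure D5:**
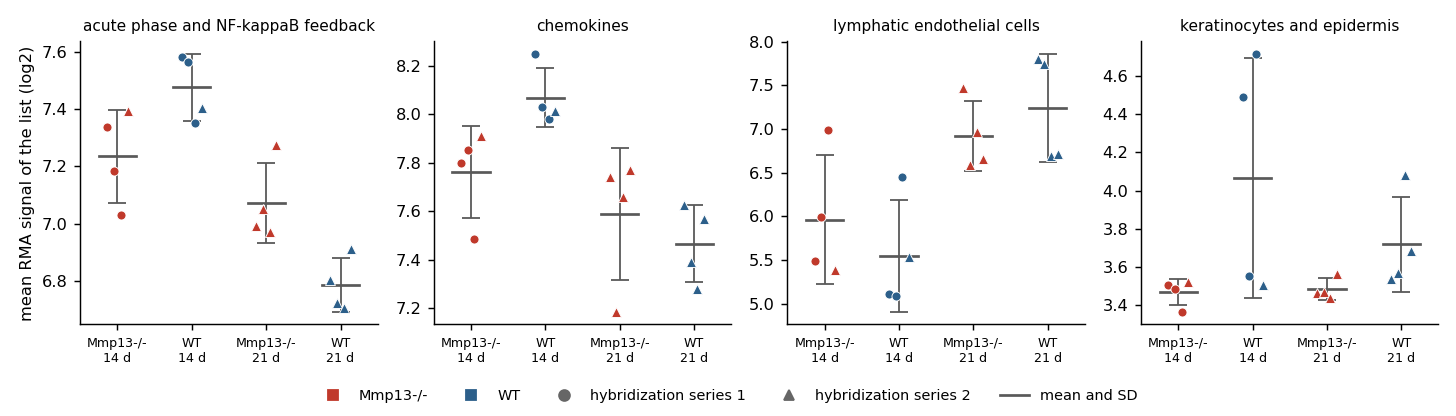
Mean RMA signal (log2, y axis) over the genes of 4 lists, by group on the x axis, with a point for each array (circles for hybridization series 1, triangles for series 2) and bars for mean and SD of 4 arrays. For the acute phase list all Mmp13-/- arrays lie above all WT arrays at 21 d and mostly below them at 14 d, and for the keratinocyte list WT arrays with means of 4.49 and 4.71 stand above the rest at 14 d.

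Among genes that the study names from these arrays, and which are therefore no independent choice, Npy and Ifi202b had the largest changes. Npy, which encodes neuropeptide Y, read 9.75, 9.45, 9.26 and 9.42 in Mmp13-/- arrays of 14 d, against 4.62, 4.66, 4.54 and 4.75 in WT arrays. At 21 d it read 3.99, 9.79, 9.62 and 4.79 in Mmp13-/- arrays, against 4.84, 8.42, 9.34 and 9.08 in WT arrays. Each array was at a low or a high level, with genotype and level matching at 14 d and not at 21 d, and the change was -5.70 ± 1.64 (SE; limma adjusted p = 0.860). Ifi202b, an interferon-inducible gene, was also at either of 2 levels, with 2.71, 3.01, 9.64 and 9.59 in Mmp13-/- arrays of 14 d, against 2.71, 3.40, 2.79 and 2.95 in WT arrays, and 8.71, 8.34, 3.04 and 3.46 in Mmp13-/- arrays of 21 d, against 3.51, 2.98, 8.94 and 8.45 in WT arrays. For such genes a mean difference counts arrays at each level rather than a graded signal. Differences of Pdgfd, a platelet-derived growth factor, were -1.22 and -1.51, those of the fibril-associated collagen Col14a1 were -0.70 and -0.79, and those of the adhesion molecule Cadm1 were 1.5 and 2.21, with changes of -0.29 ± 0.46, -0.09 ± 0.31 and 0.71 ± 0.77 (SE). Chl1, a neural adhesion molecule, had -1.29 at 14 d, without overlap, and 0.01 at 21 d, with a change of 1.31 ± 0.40. Only 2 of its 4 probe sets had that sign, the second with a change of 0.64. The other 2 were dim, with means of 2.95 and 2.13 and changes of -0.14 and -0.07.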

How the data were processed

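The authors hybridized RNA of sponge granulation tissue to Affymetrix mouse genome arrays, which hold probe sets near the 3' end of transcripts, and deposited RMA values, log2 signals per probe set that are background-corrected, quantile-normalized and summarised. RMA equalises the arrays' distributions, so a shift common to all genes would not be seen. The labelling and the RNA input differed between 2 hybridization series per the labels. Arrays give no read depth, and the 4 arrays per group limit the precision.

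From the deposited table, 64 control probe sets were dropped and 45037 tested with limma 3.58.1 in R 4.3.3 (lmFit and eBayes; 4 group means and the hybridization label; 11 residual degrees of freedom; Benjamini-Hochberg over all probe sets). Of these, 34945 had 1 gene symbol, 932 several and 9160 none in GEO's platform annotation. The script was tested on simulated data. Each array was 1 mouse according to the design text, which gives no litter or day. Named were Mmp13, 4 genes per class and direction with p under 0.05, a change over 0.75 and a mean at or above the median of 4.21, up to 3 members per list with p under 0.05, and genes the study names. The 39 lists (787 of 848 entries measured) and all members were chosen with earlier results of these data known. Genes named outside that rule were chosen after their values were seen. A p-value given as unadjusted is from limma. The deviations of same-numbered arrays correlated at 0.123 to 0.609 in the 4 pairs of 14 d, which hold both series, and at -0.129 to 0.00745 in those of 21 d. Among replicates 1 to 3 of 14 d, all of series 1, the correlations were -0.143 to -0.0269, so the replicate number was not used as a block. A permutation test of the named genes is not reported, since they were chosen on the same values. Alternatives covered the hybridization term, the arrays used, scaling, dim probe sets, the prior, array weights, the block and the choice of probe set.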

Additional observations from a re-analysis of the deposited data

Results flagged for a closer look

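In 2 genes every Mmp13-/- array lay on one side of every WT array at 14 d and on the other side at 21 d among the genes named by rule, with a change of -0.97 for B230217C12Rik and 1.33 for Saa3. Neither change passed limma's adjusted test, and over all genes this order was about as frequent as it is among arrangements of the genotype labels.

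Single arrays stood apart from the other 3 of their group (Dixon's criterion at 95%) in 24 groups of named genes. Chance marks about 1 in 20 groups, and 92 genes with 4 groups each were examined. Mmp13-/- 14 d replicate 4 was low for Tgfb1 (7.18, others 8.79 to 9.03), Mmp2 (9.25, others 9.79 to 9.87) and Vtn (3.33), and high for Ltbp2 (9.03) and Mx2 (5.74). WT 14 d replicate 4 was low for Tgfb1 (6.64, others 8.64 to 8.81). Both replicates 4 of 14 d are the arrays of hybridization series 2 on that day. Saa3 was low in Mmp13-/- 14 d replicate 3 (10.7, others 11.42 to 11.53), and Fzd8 was high in replicate 2 (5.42, others 5.24).

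At 21 d, Mmp13-/- replicate 4 was high for Ier3 (8.92) and Manf (9.42) and low for Thbs3 (5.5), replicate 1 was high for Smad6 (4.39) and Dmkn (6.07), and replicate 2 was low for Calml4 (5.21) and Dixdc1 (4.91) and high for Xbp1 (10.63). WT replicate 4 was low for Col8a1 (9.76), Batf3 (5.64) and Hba-a1 (2.49) and high for Krtdap (3.13), WT replicate 3 was low for Nxpe4 (5.67), Herpud1 (7.4) and Cd28 (4.62), and WT replicate 2 was high for Dkk1 (3.07). The Hba-a1 value is that of a dim probe set with a mean of 2.50.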

How the results depend on the processing

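The direction of the change was the same under every alternative for the named genes except those listed here. The alternatives reuse arrays of the main fit. With day 14 from series 1 only, 1 probe set passed the adjusted test of the change instead of 0, 21 genes shrank, 4 probe sets were called at 21 d, and Col14a1 had 0.0692. Within series 2, with 1 array per genotype at 14 d, 1621 probe sets had an unadjusted p under 0.05 and 1373 a size over 0.75 as well, 352 genes reversed, 61 shrank and 0 grew, and 0 probe sets were called at 14 d and 10 at 21 d. There the change was -0.29 for Calml4, 0.03 for Kif23, -0.28 for Tnxb, -0.17 for Dsp, -0.11 for Thbs3, -0.59 for Cadm1, 0.13 for Pdgfd, -0.0025 for Mmp13, -0.61 for Casp4 and -0.21 for Il1a. Without dim probe sets, fewer of which were tested, the counts were 1312 and 167, and 3 genes shrank. Without the hybridization term 4 probe sets were called at 14 d and 1 at 21 d, and with all 22 arrays 22 were called at 21 d. The trended robust prior called 15 at 14 d, and 4 genes shrank. Array weights called 355 at 14 d and 1 at 21 d, 5 genes grew, and Adamts4 had 0.036. With the mean of a gene's probe sets 3 genes shrank and 7 grew, and Col14a1 had 0.12. Without WT 14 d replicates 1 and 3, chosen after seeing the data, 4 probe sets were called at 14 d and 8 at 21 d, 2 genes grew, and the change was -0.42 for Dsp, -0.80 for Cadm1, -0.059 for Casp4 and -0.071 for Il1a. The cause of these shifts was not tested.

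With the replicate block, 0 changes passed the adjusted test, 2598 had an unadjusted p under 0.05, 293 of them with a size over 0.75, and 6 probe sets were called at 21 d. At 14 d 1 of 4 Mmp13-/- arrays correlated best with the WT array of its own number, and at 21 d 0 of 4.

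When single arrays were left out, between 0 and 1 changes passed the adjusted test, 238 to 453 had an unadjusted p under 0.05 and a size over 0.75, with the highest count without WT 21 d replicate 4, 82 to 177 genes reversed, 4 to 21 shrank (21 without WT 14 d replicate 4) and 5 to 26 grew (26 without WT 21 d replicate 4). Between 1 (Mmp13 alone, as without any of replicates 1 to 3 of 14 d) and 15 probe sets were called at 14 d, and 1 to 12 (12 without WT 21 d replicate 4) at 21 d. The change then ranged between -0.36 and 0.0347 for Adamts4, -0.07 and 0.34 for Casp4, -0.27 and 0.12 for Col14a1, -0.0867 and 0 for Hba-a1, -0.22 and 0.35 for Il1a, -0.0592 and 0.43 for Mmp13, and -0.58 and 0.0675 for Pdgfd. Hba-a1 stands here for a dim probe set of that gene alone (mean 2.50). The probe set shared by Hba-a1 and Hba-a2 had a mean of 11.54 and a change of 0.665.

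The 4 arrays per group and the single pair of 14 d in series 2 limit these results. The signal of dim genes, such as Saa2 or Smad6, is close to that of unexpressed probe sets.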
